A study of Mus musculus with 3 samples.

Results

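The 35 genes described here encode lysosomal hydrolases and lysosomal membrane proteins other than the cathepsins. They were chosen by name, and each gene was measured as the reads of all its transcripts in the mRNA table, joined through its GENCODE M21 symbol. All 35 had rows, 175 of the 56651 transcripts and 35 of the 15861 genes of the table, and all 35 had at least 20 reads over the 3 libraries, a minimum that 12713 genes met. There were 3 libraries of apoptotic bodies (ABs), 1 from bone marrow macrophages (BMM-ABs), 1 from preosteoclasts (pOC-ABs) and 1 from mature osteoclasts (mOC-ABs). ABs are the membrane-bound fragments that a cell sheds as it dies by apoptosis.

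The cells came from bone marrow of C57BL/6 mice aged 11 weeks, and all 3 libraries share that source. The labels give BMMs (the macrophages) made with 50 ng/ml M-CSF for 72 h, pOCs (the preosteoclasts) made from them with 30 ng/ml M-CSF and 100 ng/ml RANKL for 24 h, and mOCs (the mature osteoclasts) made with the same cytokines for 72 h or more. The labels name alendronate, 500 µM for 12 h, as the inducer of apoptosis in all groups. The study's methods instead name staurosporine, 0.5 µM for 3 h, RANKL for 96 h for mOCs and 50 ng/ml M-CSF. The sample titles name the cells and the study describes ABs, and the libraries are called ABs here. How many mice were pooled is not given in the sources used here. G1 is pOC-ABs vs BMM-ABs, G2 is mOC-ABs vs BMM-ABs and G3 is mOC-ABs vs pOC-ABs, so each library serves in a pair of comparisons.

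The lysosome is the acidic compartment in which a cell degrades proteins, glycans, lipids and nucleic acids delivered by endocytosis, phagocytosis and autophagy. Its soluble hydrolases are mostly sorted there with a mannose 6-phosphate tag, and its limiting membrane is protected by heavily glycosylated proteins such as LAMP1 and LAMP2. Macrophages are rich in lysosomes, and osteoclasts deliver lysosomal membrane and enzymes to the bone surface to form the ruffled border. Many lysosomal genes carry CACGTG in their promoters, the core of the motif bound by TFEB and its relatives of the MiT/TFE family.

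Promoter windows are shown so that the letters of that motif can be seen in the lysosomal genes that hold it. RefSeq promoters (GRCm38.p6, 250 bases before to 50 bases after the start of the gene) were matched for 32 of the 35 genes, not for Asah1, Aga and Npc1. CACGTG, which reads the same on both strands, lay in 8 of the 32 (25%), against 8.09% of 27025 promoters and 12.1% of the 8684 promoters of protein-coding genes with at least 20 reads. The 30 bases around the CACGTG nearest to the start are given for the 8 genes, 5′ to 3′ on the strand of the gene, with CACGTG in capitals:

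Cln3, chr7:126583340-126583369, minus strand: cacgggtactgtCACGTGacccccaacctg

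Mcoln1, chr8:3500462-3500491, plus strand: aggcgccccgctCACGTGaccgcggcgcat

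Lamp1, chr8:13159134-13159163, plus strand: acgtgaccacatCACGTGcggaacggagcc

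Glb1, chr9:114401018-114401047, plus strand: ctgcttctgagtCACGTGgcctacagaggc

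Gaa, chr11:119267811-119267840, plus strand: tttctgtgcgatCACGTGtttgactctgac

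Sgsh, chr11:119355522-119355551, minus strand: gggcctgccgtgCACGTGaccgtggggagc

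Arsa, chr15:89477423-89477452, minus strand: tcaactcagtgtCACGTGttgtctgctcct

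Gla, chrX:134601182-134601211, minus strand: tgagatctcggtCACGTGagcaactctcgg

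The first C of the motif lay 15 bases before the RefSeq start in Lamp1, 16 in Arsa, 29 in Sgsh and 121 in Cln3. For Cln3 that start lies inside the M21 gene (chr7:126571207-126585817, minus strand). Cln3-202, the Cln3 transcript with the most reads, starts upstream of it, so the window shown is not its promoter. The RefSeq start also lay inside the M21 gene for most of the other genes. The Mcoln1 window shown lies inside Mcoln1-201, its transcript with the most reads, which starts at chr8:3500457. In Sgsh the CACGTG shown crosses the start of Sgsh-201, its leading transcript, at chr11:119355536. Lamp1 held CACGTG 4 times within 61 bases of its start, and Cln3, Mcoln1 and Gla each held it at a pair of positions. The longer TCACGTG, searched on both strands and overlapping CACGTG, was in the same 8 promoters (25%), against 4.29% of all promoters and 7.24% of those of the measured protein-coding genes. Over the comparisons G1, G2 and G3 the 8 genes with CACGTG had median log2 ratios of −0.62, −0.46 and 0.24, and the other 24 matched genes had −0.70, −0.46 and 0.28. These matches describe letters, and their absence elsewhere concerns these windows only.

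The RNAs of the lysosomal genes took a smaller share of the mRNA reads in both osteoclast-lineage AB libraries than in BMM-ABs, and the smallest in pOC-ABs. The 35 genes together gave 59442 of 9100082 mRNA reads in BMM-ABs, while pOC-ABs gave 28744 of 7387317 and mOC-ABs gave 36618 of 7705592. These are 0.6532% (95% Clopper-Pearson interval 0.648 to 0.6585), 0.3891% (0.3846 to 0.3936) and 0.4752% (0.4704 to 0.4801). The log2 ratios of the summed CPM (counts per 1000000 reads of the mRNA table) in G1, G2 and G3 came to −0.75, −0.46 and 0.29. The intervals are exact binomial intervals and cover counting error only. The reads carry no molecular identifiers, so PCR copies count as separate reads and the intervals may be too narrow. There is 1 library of each AB, so no spread between replicates was measured, no p-value is given, and every difference below is between these libraries. Fewer cells of a type, less RNA per cell and less of that RNA in the ABs cannot be told apart in such bulk libraries.

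Single genes were compared as log2 ratios of CPM, and a gene is called past the limit when its ratio exceeded 1.5-fold. In G1, 32 of the 35 genes were lower in pOC-ABs and 3 higher, where 51.5% and 48.4% of the 12713 genes were. Past the limit were 22 lower genes, where the background was 15.7%, and 0 higher genes, where it was 13.9%. At 2-fold 7 genes were lower (background 6.06%), namely Sgsh, Psap, Laptm5, Npc1, Arsb, Man2b1 and Gaa. The interval lay below 0 for 31 genes (background 30.3%) and above 0 for 1, Npc2 (26.1%). The median of the 35 was −0.67, from −1.35 in Sgsh to 0.28 in Aga, and that of all genes was −0.02.

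In G2, 28 genes were lower in mOC-ABs and 7 higher, where 54.6% and 45.4% of all genes were. Past the limit were 13 lower genes (background 19.5%) and 0 higher genes (10.3%). Those past 2-fold were 3 (9.01%), namely Ppt1, Arsa and Man2b1, a share near the background. The interval lay below 0 for 24 genes (31.7%) and above 0 for Glb1 and Lipa (23.8%). The median of the 35 was −0.46, from −1.31 in Ppt1 to 0.23 in Glb1, against −0.05 in all genes.

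In G3, 26 genes were higher in mOC-ABs than in pOC-ABs and 9 lower, where 45.5% and 54.4% of all genes were. The interval lay above 0 for 22 genes (21.9%) and below 0 for Lamp2, Aga and Ppt1 (27.2%). Arsb, Sgsh, Idua and Glb1 were higher past the limit (8.74%), a share near the background, and Ppt1 was lower past it (15.3%), with Arsb alone past 2-fold (3.5%). The median was 0.27 against −0.05 in all genes.

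**Figure D1:**
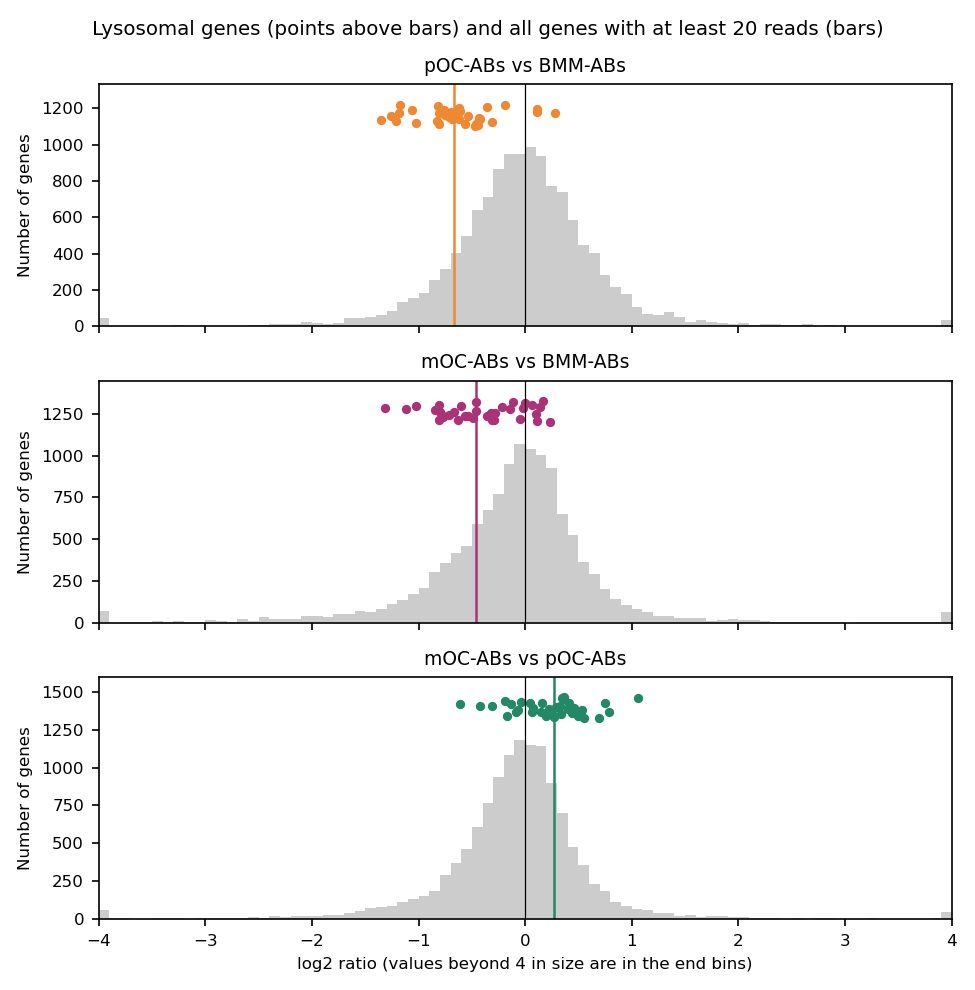
Distribution of log2 ratios in G1, G2 and G3. Grey bars count the genes with at least 20 reads per 0.1 of log2 ratio, the points above the bars are the 35 lysosomal genes at their own ratios (their height has no meaning), and the coloured line is their median (−0.67, −0.46 and 0.27).

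By the order of the 3 libraries, 26 of the genes were highest in BMM-ABs, 6 in mOC-ABs and 3 in pOC-ABs, and 26 were lowest in pOC-ABs, 8 in mOC-ABs and 1, Npc2, in BMM-ABs. These orders take no account of counting error, and for 10 genes the interval of G3 held 0. For 24 genes the interval lay below 0 in both G1 and G2. For 7 genes (Tmem192, Idua, Arsb, Glb1, Smpd1, Gm2a and Lipa) it lay below 0 in G1 and not in G2, and for Aga, Ids, Asah1 and Npc2 in neither. The shares of all genes with these orders, or with these intervals in G1 and G2 jointly, are not given here. Whether the orders are commoner among the lysosomal genes was therefore not tested. G1 and G2 share the BMM-AB library, so their values are set side by side and not counted as separate evidence.

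**Figure D2:**
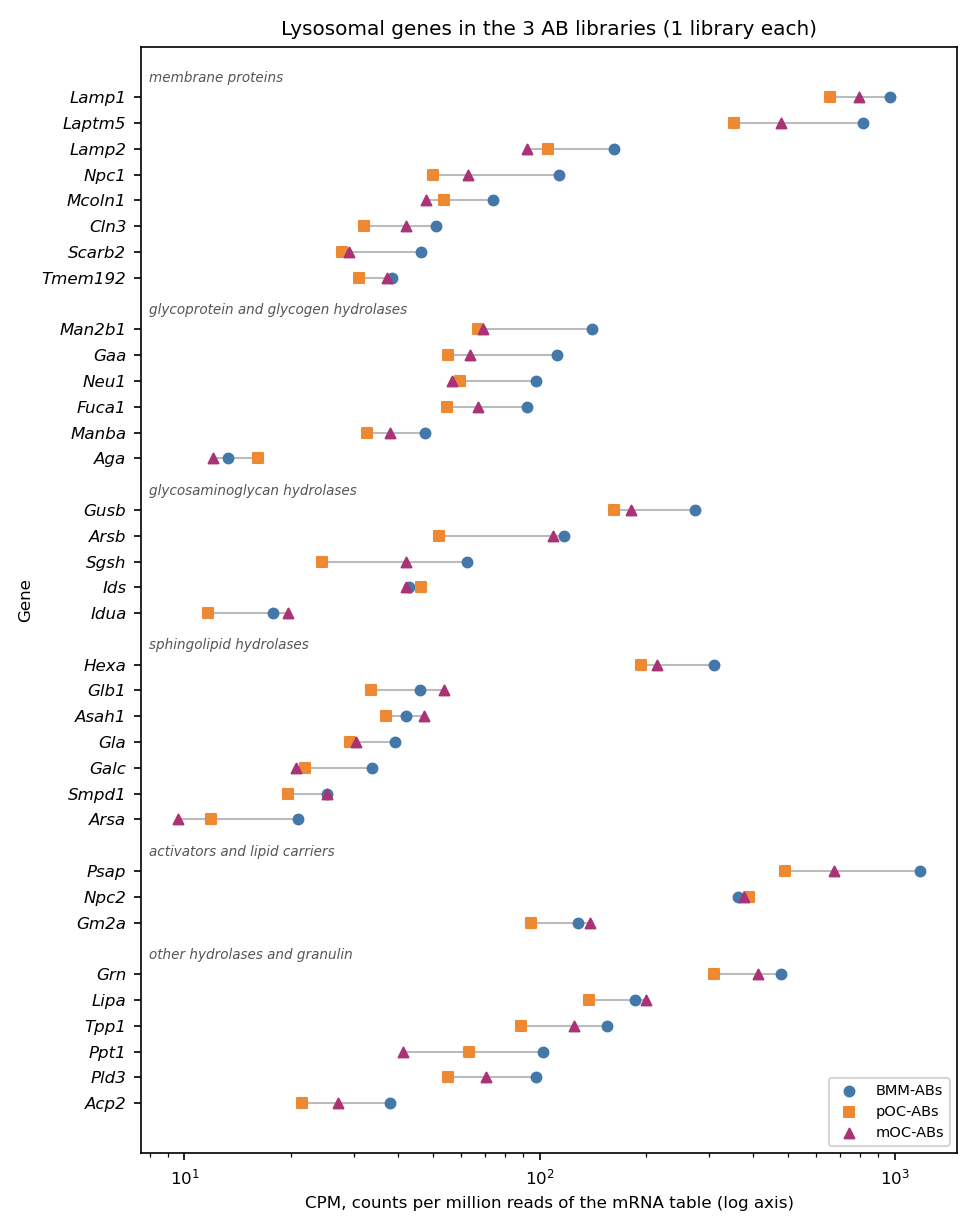
Level of each lysosomal gene, in CPM on a log axis, in BMM-ABs (circles), pOC-ABs (squares) and mOC-ABs (triangles), 1 library each, grouped by role. The circle is rightmost for 26 of the 35 genes and the square leftmost for 26. The shares of all genes in these orders are not given here.

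The ranking of levels between genes was read per length, in FPKM. Psap had the highest FPKM in BMM-ABs (445.1), followed by Lamp1 (437.9), Laptm5 (407.4) and Grn (275.4). Lamp1 led in both pOC-ABs (296.1) and mOC-ABs (358.3), where Psap was at 186.0 and 255.2 FPKM. The lowest gene in BMM-ABs was Arsa, at 8.072 FPKM there and at 4.646 and 3.050 FPKM in the other libraries. The values that follow are CPM in BMM-ABs, then pOC-ABs, then mOC-ABs, and after them log2 ratios with the 95% counting interval in parentheses.

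Among the 8 membrane proteins all were lower in G1 and G2 (background 51.5% and 54.6%), 5 of them past the limit in each (15.7% and 19.5%). Lamp1 (chr8:13159161-13175338), the most abundant glycoprotein of the lysosomal membrane, had 971.3, 656.8 and 793.3 CPM, and its ratio was −0.56 (−0.62 to −0.51) in G1 and −0.29 (−0.34 to −0.24) in G2. Laptm5 (chr4:130913125-130936141), a membrane protein of lysosomes in blood cells, stood at 815.3, 353.3 and 478.6, with −1.21 (−1.27 to −1.14) in G1 and −0.77 (−0.83 to −0.71) in G2. Both genes were highest in BMM-ABs and lowest in pOC-ABs, and the fall of Laptm5 was the larger in both comparisons. Lamp2, whose protein serves autophagy and the stability of the membrane, had 161.8, 105.6 and 92.27, and unlike those it was lower in mOC-ABs than in pOC-ABs, with −0.19 (−0.34 to −0.05) in G3. Its G2 ratio was −0.81 (−0.94 to −0.68).

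Npc1, which exports cholesterol from the lysosome together with Npc2, had 113.4, 50.22 and 63.07 CPM, and its ratio was −1.18 (−1.35 to −1.0) in G1 and −0.85 (−1.0 to −0.69) in G2. Scarb2, the receptor that carries glucocerebrosidase to the lysosome, had 46.26, 27.75 and 29.07 and fell past the limit in both. Mcoln1, a cation channel that releases lysosomal calcium, had 74.07, 53.88 and 48.02, and its ratio passed the limit in G2 only, at −0.63 against −0.46 in G1. The order of pOC-ABs and mOC-ABs for Scarb2 and Mcoln1 lay within counting error. Cln3, the membrane protein of juvenile Batten disease, had 50.99, 31.95 and 42.05 with −0.67 in G1 and −0.28 (−0.49 to −0.07) in G2. Tmem192, a membrane protein of unsettled function, differed least, at 38.46, 31.00 and 37.12, and its G2 ratio of −0.05 (−0.28 to 0.18) held 0.

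Of the 6 hydrolases of glycoproteins and glycogen, 4 were lower past the limit in G1 (background 15.7%) and 3 in G2 (19.5%). Man2b1, an alpha-mannosidase, had 140.2, 67.14 and 69.30 CPM, with −1.06 (−1.21 to −0.91) in G1 and −1.02 (−1.17 to −0.87) in G2. Gaa, the acid alpha-glucosidase that degrades glycogen, had 111.9, 55.23 and 63.59, with −1.02 (−1.19 to −0.85) and −0.81 (−0.97 to −0.66). The sialidase Neu1 had 97.58, 59.56 and 56.58, with −0.71 and −0.79. For these 3 genes both osteoclast-lineage libraries lay well below BMM-ABs and close to each other.

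Fuca1, an alpha-fucosidase, had 92.42, 54.82 and 67.09 CPM, and Manba, a beta-mannosidase, had 47.47, 32.62 and 38.02. Both were lowest in pOC-ABs by CPM, with ratios of −0.75 and −0.54 in G1 and −0.46 and −0.32 in G2. The G3 ratio of Manba, 0.22 (−0.03 to 0.47), held 0 in its interval. In FPKM Manba was lowest in mOC-ABs, at 17.52, 15.13 and 13.98. Aga, which cleaves the link between glycan and asparagine, went the other way in G1, at 13.30, 16.11 and 12.07. It rested on 121, 119 and 93 reads, so that its G1 ratio of 0.28 (−0.10 to 0.65) was not distinguishable from 0 at this depth.

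The 5 hydrolases of glycosaminoglycans had a median of 0.75 in G3, with 4 higher (background 45.5%) and 1 lower (54.4%) in mOC-ABs than in pOC-ABs. Arsb (chr13:93771630-93943016), the sulfatase of dermatan and chondroitin sulfate, had 117.4, 52.25 and 108.8 CPM. It fell to −1.17 (−1.34 to −1.0) in G1, differed little in G2 at −0.11 (−0.24 to 0.02), and reached 1.06 (0.88 to 1.24) in G3, the highest G3 ratio of the 35 genes. The pOC-AB library stood apart from the other two, which lay within counting error of each other. Sgsh, a sulfatase of heparan sulfate, had 62.31, 24.37 and 42.18, with the lowest G1 ratio of the 35 at −1.35 (−1.60 to −1.11) and −0.56 in G2.

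Idua, the alpha-iduronidase, had 17.80, 11.64 and 19.60 CPM, with −0.61 (−1.01 to −0.23) in G1 and 0.14 (−0.19 to 0.47) in G2, on 162, 86 and 151 reads. Gusb, the beta-glucuronidase, had 274.6, 161.9 and 181.2, with −0.76 (−0.86 to −0.66) in G1 and −0.60 (−0.70 to −0.51) in G2. It followed the commoner order, highest in BMM-ABs and lowest in pOC-ABs. Ids, the iduronate sulfatase, had 42.86, 46.30 and 42.18, and all 3 of its ratios, from −0.13 to 0.11, held 0 in their intervals.

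All 7 hydrolases of sphingolipids were lower in G1 (background 51.5%), 3 of them past the limit (15.7%). In G2 4 were lower and 3 higher, shares near those of all genes (54.6% and 45.4%). Hexa, the alpha subunit of beta-hexosaminidase, was the best covered at 310.8, 192.5 and 213.6 CPM, with −0.69 (−0.78 to −0.60) in G1 and −0.54 (−0.63 to −0.45) in G2. Arsa, the sulfatase of sulfatides, fell in both at 20.88, 11.91 and 9.603, with −0.81 (−1.19 to −0.44) and −1.12 (−1.53 to −0.73). Galc, the galactosylceramidase, had 33.74, 21.93 and 20.63, with −0.62 and −0.71. Gla, the alpha-galactosidase, had 39.12, 29.24 and 30.50, with −0.42 and −0.36, and did not reach the limit.

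Glb1, the beta-galactosidase, was one of the few genes highest in mOC-ABs, at 46.15, 33.44 and 53.99 CPM. It was lower in G1, at −0.47 (−0.70 to −0.23), slightly higher in G2, at 0.23 (0.03 to 0.43), and past the limit in G3, at 0.69 (0.46 to 0.92). Asah1, the acid ceramidase, had 42.20, 36.96 and 47.37, in the same order, and its ratios in G1 and G2 held 0 in their intervals. The sphingomyelinase Smpd1 had 25.16, 19.63 and 25.18, with BMM-ABs and mOC-ABs indistinguishable and −0.36 (−0.67 to −0.05) in G1.

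The 3 activators and lipid carriers behaved differently from each other. Psap (chr10:60277627-60302597), the precursor of the saposins that present sphingolipids to their hydrolases, had the most reads of the 35 genes in BMM-ABs and the second most, after Lamp1, in the other libraries, with 10719, 3636 and 5203, or 1178, 492.2 and 675.2 CPM. It fell by 1.26 on the log2 scale in G1 (−1.31 to −1.20) and by 0.80 in G2 (−0.85 to −0.75), and was higher in G3 at 0.46 (0.39 to 0.52). Npc2 (chr12:84754562-84773152), the soluble cholesterol carrier that hands over to Npc1, had 361.0, 389.2 and 377.3 and varied least of all 35 genes, 1.08-fold between its highest and lowest library. Its G1 ratio was 0.11 (0.04 to 0.18), while that of its partner Npc1 was −1.18. Gm2a, the activator of ganglioside GM2 breakdown, had 128.5, 94.49 and 138.6, lower in G1 at −0.44 and at 0.11 (−0.01 to 0.23) in G2.

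Of the 6 remaining genes 5 were lower past the limit in G1 (background 15.7%) and 1 in G2 (19.5%), the latter a share near the background. Grn, the precursor of granulins, had 478.6, 310.4 and 412.3 CPM, with −0.62 (−0.70 to −0.55) in G1 and −0.22 (−0.28 to −0.15) in G2. Lipa, the acid lipase of cholesteryl esters and triglycerides, had 185.7, 138.1 and 199.7, with −0.43 (−0.54 to −0.31) and 0.10 (0.00 to 0.21). Both were lowest in pOC-ABs, and Lipa was back at or slightly above its BMM-AB level in mOC-ABs.

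Ppt1 (chr4:122836242-122859175), a thioesterase that removes fatty acids from proteins, had 102.6, 63.35 and 41.40 CPM. It had the lowest G2 ratio of the 35 genes, −1.31 (−1.50 to −1.12), and was the only one past the limit lower in G3, at −0.61 (−0.82 to −0.41). It thus ran against the commoner order, in which mOC-ABs lay above pOC-ABs. Its exons overlap those of Cap1 on the opposite strand, which gave 3215, 5026 and 2316 reads, and whether strand was used in counting is not given in the sources used here. Tpp1, a tripeptidyl peptidase, had 154.9, 88.53 and 125.0, Pld3, a lysosomal exonuclease of the phospholipase D family, 97.58, 55.37 and 70.73, and the acid phosphatase Acp2 37.91, 21.39 and 26.99. These 3 genes shared one order, with G1 ratios of −0.81, −0.82 and −0.83 and G2 ratios of −0.31, −0.46 and −0.49. In summed FPKM, Tpp1 had −0.46 in G1 and 0.38 in G2 and Acp2 had −0.15 and −0.03, so that neither passed the limit in G1 and Tpp1 turned its direction in G2.

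**Figure D3:**
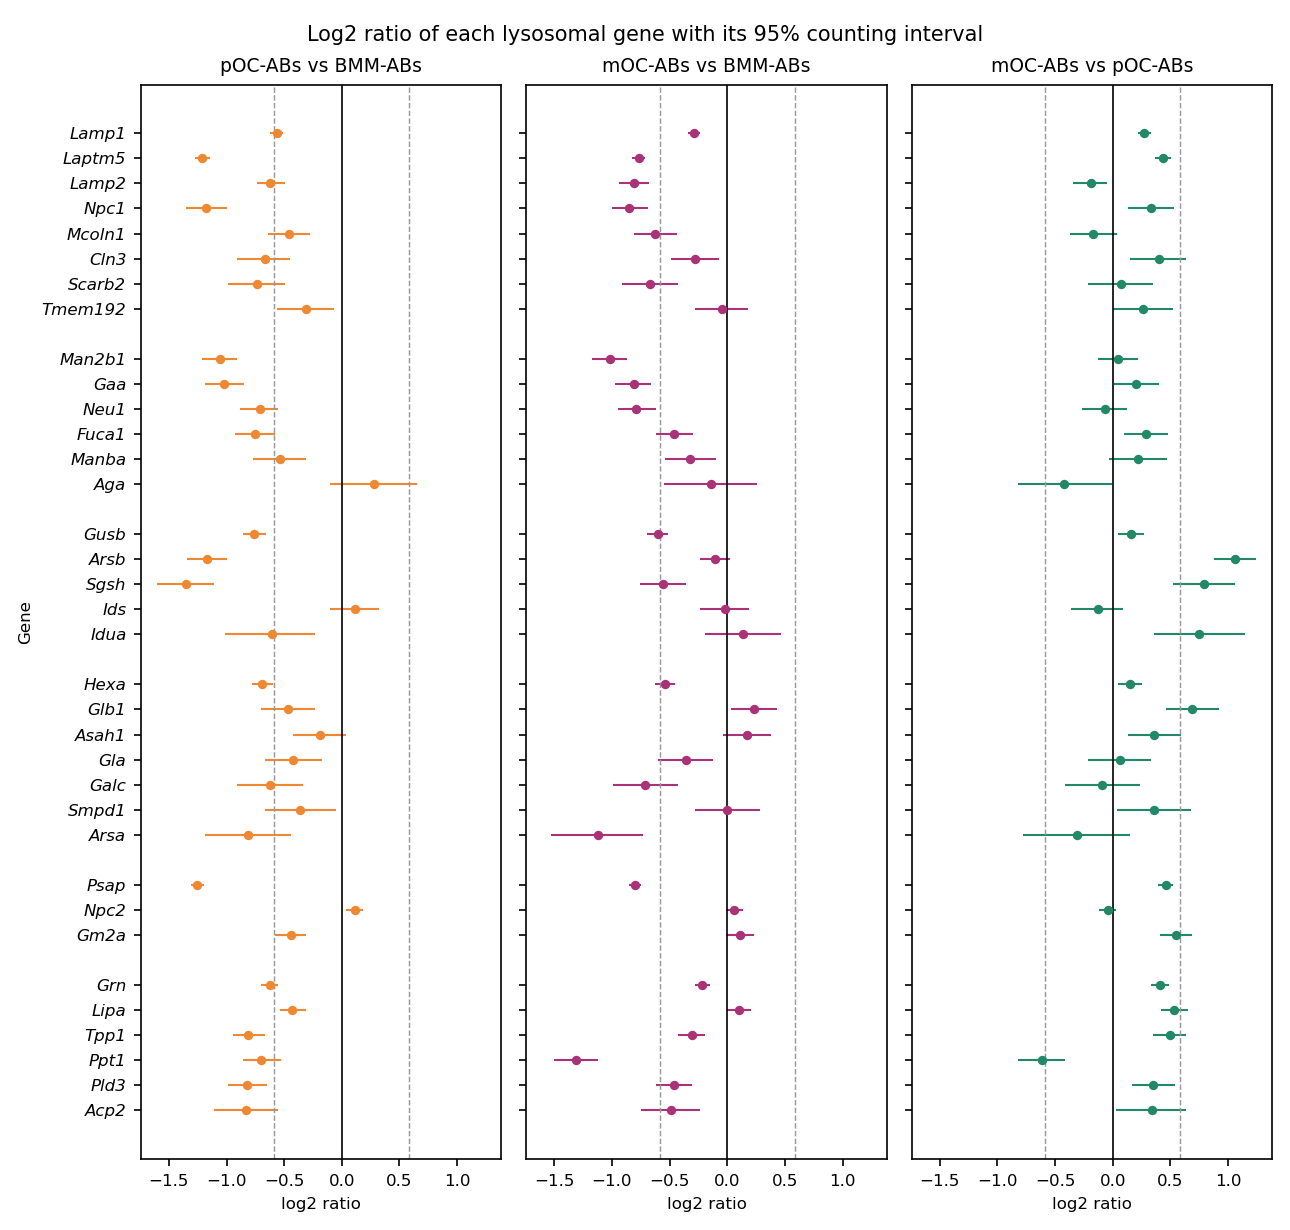
Log2 ratio of each lysosomal gene (points) with its exact 95% counting interval (bars) in G1, G2 and G3. The solid line is no difference and the dashed lines are 1.5-fold. In G1 31 intervals lie to the left of 0, in G2 24, and in G3 22 lie to its right.

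Exon overlaps bear on other members too. Glb1 shares exon bases with Tmppe on the same strand (170, 46 and 93 reads). Acp2, Cln3, Grn, Hexa, Idua, Lamp1, Npc1 and Sgsh overlap genes of the table on the opposite strand, none of which exceeded the 1508 reads of Apobr at Cln3. Apobr had more reads than Cln3 in each library (648, 419 and 441 against 464, 236 and 324). At Idua, Dgkq had 194, 130 and 110 reads against 162, 86 and 151, more than Idua in BMM-ABs and pOC-ABs. Reads of such pairs cannot be told apart without strand.

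Most reads of the lysosomal genes were assigned to protein-coding transcripts, 92.0%, 91.8% and 93.3% in the same order of libraries, against 81.2%, 77.7% and 80.4% over all transcripts. Retained-intron transcripts took 4.93%, 4.89% and 4.12% of their reads (all transcripts 5.22%, 4.21% and 3.84%), and transcripts classed as targets of nonsense-mediated decay took 2.45%, 2.74% and 1.76% (2.14%, 1.78% and 1.91%). The transcript with the most reads was the same in all 3 libraries for all but 6 of the 32 lysosomal genes with several transcripts. Among those with at least 200 reads in each library it differed for 3 of 25 (12%), against 1201 of 5217 genes (23%).

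Gaa was the single gene of these 25 in which a transcript moved by at least 30 percentage points of the gene's reads, against 22.2% of the 5217 genes. Gaa-203 and Gaa-201 are both protein-coding and differ in where they start, at chr11:119267887 and chr11:119268026. Gaa-203 gave 553, 262 and 129 reads, or 54.3%, 64.2% and 26.3% of the reads of Gaa. Gaa-201 gave 274, 92 and 327, or 26.9%, 22.5% and 66.7%. The leading transcript was therefore Gaa-203 in BMM-ABs and pOC-ABs and Gaa-201 in mOC-ABs, and the sum of the gene hides a G2 ratio of −1.86 (−2.15 to −1.58) for the first and 0.50 (0.26 to 0.73) for the second. The assignment of reads to overlapping transcripts is an estimate whose error is not in these intervals.

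The genes that come next were chosen with their values in view. In Acp2 the protein-coding Acp2-201 held 84.3%, 72.2% and 11.5% of the reads, 291, 114 and 24, while the retained-intron Acp2-202 held 12.2%, 15.2% and 82.7%. On protein-coding transcripts alone the G2 ratio of Acp2 was −2.86 in place of −0.49, and its G3 ratio turned from 0.34 to −1.98. In Gusb the decay transcript Gusb-206 gave 987, 548 and 232 reads, and the protein-coding share was 56.5%, 50.7% and 79.4%. In Idua that share was 35.8%, 48.8% and 76.8%, and in Arsa 44.7%, 53.4% and 81.1%, both highest in mOC-ABs. Smpd1 and Galc had their lowest share in pOC-ABs, with 90.4%, 51.7% and 87.6% and with 84.7%, 56.8% and 89.3%. Tmem192-204, a decay transcript, had 0, 61 and 74 reads. With 0 reads in BMM-ABs it has no ratio, and the lower limits of its log2 intervals were 4.30 in G1 and 4.53 in G2. The protein-coding transcript of Tpp1 held 17.2%, 25.1% and 28.5% of its reads, and on it the ratio of Tpp1 was −0.26 in G1 in place of −0.81 and 0.42 in G2 in place of −0.31. Counted on protein-coding transcripts, 5 genes were no longer past the limit in G1, namely Idua (−0.16), Arsa (−0.55), Ppt1 (−0.39), Tpp1 and Grn (−0.57), while Smpd1 (−1.16) and Tmem192 (−0.75) passed it. In G2 Gusb (−0.11), Arsa (−0.26) and Mcoln1 (−0.31) were no longer past it, while Sgsh (−0.59) and Acp2 passed it downward and Idua (1.24) upward.

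**Figure D4:**
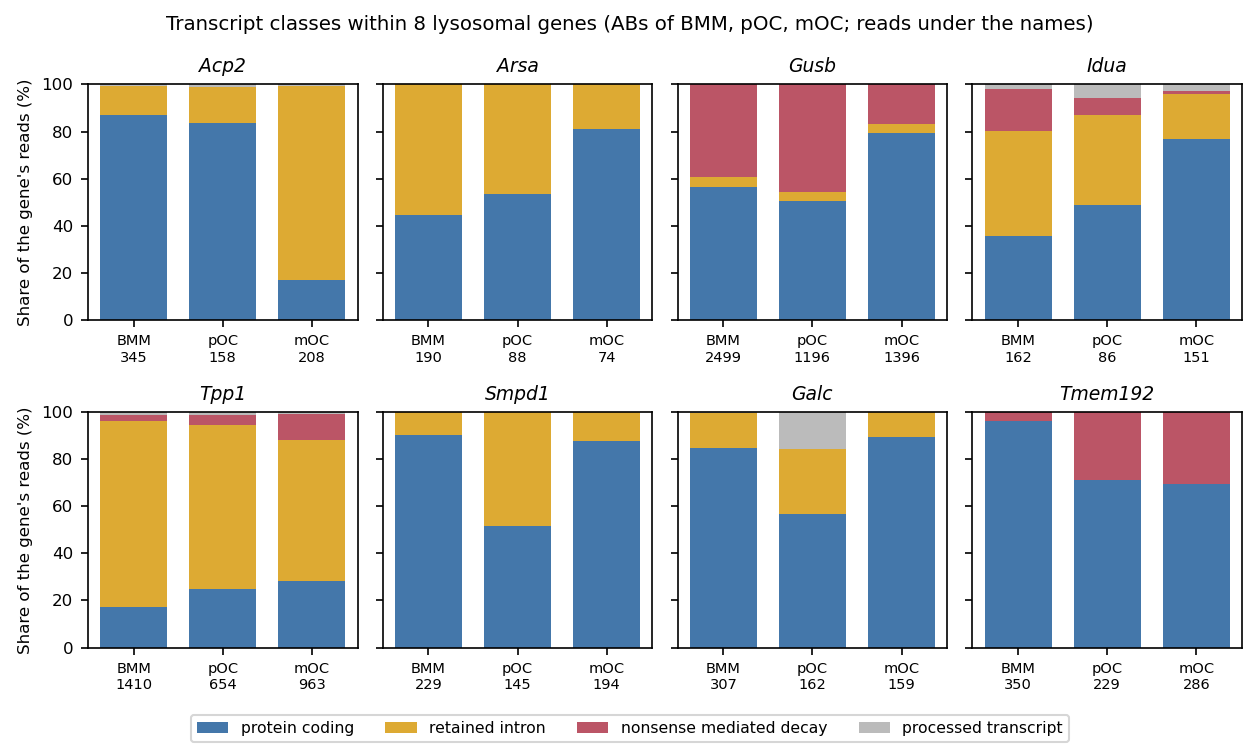
Share of each gene's reads, in percent, assigned to protein-coding, retained-intron, nonsense-mediated decay and processed transcripts in ABs of BMMs, pOCs and mOCs, with the reads of the gene under each bar, for 8 genes chosen with their values in view. The protein-coding share of Acp2 falls from 87.2% in BMM-ABs to 16.8% in mOC-ABs, while those of Arsa, Gusb and Idua are highest in mOC-ABs.

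The rest of the lysosomal pathway was read from further lists. Of all genes, 15.7% were lower past the limit in G1 and 19.5% in G2, and 13.9% and 10.3% were higher past it. Of 21 other lysosomal hydrolases, 14 were lower past the limit in G1 and 14 in G2, and 0 higher in either, with medians of −0.73 and −0.68. Among them Naglu, which acts on heparan sulfate, had −1.27 and −0.74, and the phospholipase Pla2g15 had −1.36 and −1.37. Lyz2, lysozyme of myeloid cells, had 3170, 1334 and 411.4 CPM, and its split from the near-identical Lyz1 is uncertain, as is that of Rnaset2a from Rnaset2b. Of the 19 other membrane proteins with at least 20 reads, 13 were lower past the limit in G1 and 11 in G2, with medians of −0.78 and −0.73. Slc36a1, a lysosomal amino acid exporter, had 54.40, 12.72 and 10.64 CPM, with −2.10 in G1 and −2.35 in G2. The membrane proteins Laptm4a and Slc38a9 had G2 ratios of −1.21 and −1.23.

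Delivery of hydrolases was lower past the limit for 7 of 14 genes in G1 (background 15.7%) and 5 in G2 (19.5%), with medians of −0.59 and −0.41. Sort1, a sorting receptor, had ratios of −1.39 and −1.45, and Gnptg, a subunit of the enzyme that makes the mannose 6-phosphate tag, had −0.48 and −1.06. Of the 4 MiT/TFE factors, Tfeb was lower past the limit in both, at 59.89, 30.46 and 28.94 CPM. Mitf, named after its values were known, had 80.88, 94.76 and 121.0, with 0.23 (0.08 to 0.38) in G1 and 0.58 (0.44 to 0.72) in G2.

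Of the 11 cathepsins and legumain with at least 20 reads, 10 were lower in G1 (background 51.5%) and 10 in G2 (54.6%). Only Ctsk was higher. Past the limit were 8 lower genes in G1 (15.7%) and 9 in G2 (19.5%), led by Ctsc (−1.95 in G2), Lgmn (−1.30) and Ctss (−1.27). Ctsk, the collagen-degrading cathepsin of osteoclasts, had 19.78, 23.15 and 129.9 CPM, with 0.23 (−0.08 to 0.54) in G1 and 2.72 (2.49 to 2.95) in G2. None of the 35 lysosomal genes passed the limit upward in either comparison on the reads of all transcripts, and on protein-coding transcripts Idua alone did, in G2.

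**Figure D5:**
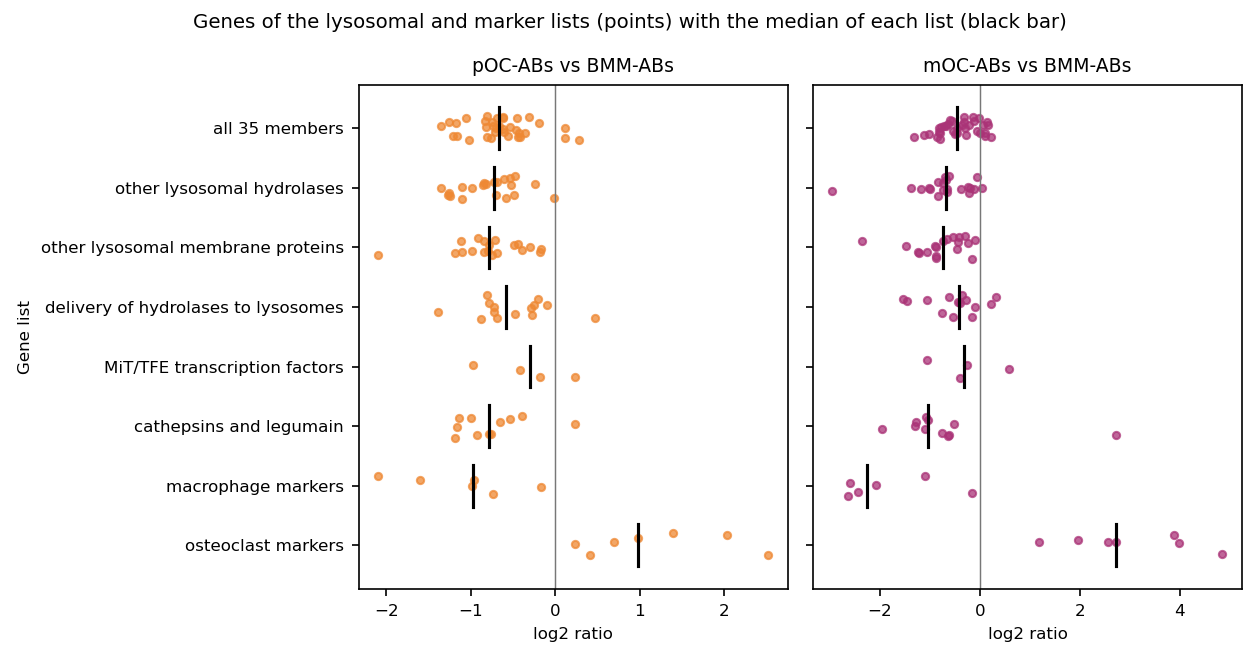
Log2 ratios in G1 and G2 of genes with at least 20 reads (points) of the 35 lysosomal genes, the other pathway lists and the marker lists, with the median of the drawn points as a black bar. The lysosomal lists lie mostly left of 0 and the osteoclast markers right of it. Oscar, with 0 reads in BMM-ABs, has no ratio and is not drawn, Ctsk is on the cathepsin and osteoclast lists, and Cd68 on the membrane and macrophage lists.

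Markers were compared with the labelled cell types. All 8 osteoclast markers with at least 20 reads were higher in G1 (background 48.4%) and G2 (45.4%). The interval lay above 0 for 6 of them in G1 (26.1%) and 8 in G2 (23.8%). Acp5 had 9.670, 39.53 and 279.9 CPM, Atp6v0d2 20.55, 118.2 and 303.4 and Mmp9 0.8791, 2.301 and 13.89, the last on 8, 17 and 107 reads. Calcr had no row and Itgb3 had 6, 3 and 0 reads. Of the 8 macrophage markers, the 6 with at least 20 reads were all lower in G1 (background 51.5%) and G2 (54.6%). Adgre1 had −0.99 and −2.43, Itgam −0.74 and −2.60 and Fcgr1 −0.96 and −2.63. The 8 macrophage markers summed to 2110, 1160 and 1220 CPM. Their sum thus fell with that of the lysosomal genes, and their part in the result was not tested. Neutrophil and erythroid markers had no rows, and stromal, B cell, T cell and megakaryocyte markers had at most 17 reads in a library.

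Other quantities also differed between the libraries. Mitochondrial genes took 2.9%, 5.76% and 2.87% of the mRNA reads, so the pOC-AB library, the lowest for 26 of the lysosomal genes, was the highest in these. The median G1 ratio of protein-coding genes went from 0.23 in the 2200 genes of lowest GC content (bin 1 of 5) to −0.22 in those of the highest, and the lysosomal genes had a median GC content of 51.6% against 50.4%. The 5 bins held 3, 8, 9, 10 and 5 of the lysosomal genes, whose medians in G1 were −0.19, −0.58, −0.67, −0.66 and −0.82. Those of all protein-coding genes in the bins were 0.23, 0.03, −0.08, −0.17 and −0.22. The parts of GC content and of mitochondrial reads in the result were not tested.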

How the data were processed

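RNA of ABs was sequenced from paired-end TruSeq libraries made after purification on poly-T beads. FastQC, HISAT2, StringTie and the build GRCm38 are named in the submitters' processing notes. Settings of the counting, use of strand and the circRNA caller are not given in the sources used here. The authors deposited read counts and FPKM per transcript for mRNAs and lncRNAs and junction read counts for circRNAs, 1 column per library, and the deposited columns are headed by time. No per-sample column was left unmapped.

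Counts of all transcripts of a gene (GENCODE M21) were summed and divided by the reads of the mRNA table (7387317 to 9100082 per library, 3 reads being 0.33 to 0.406 CPM). The deposited FPKM values served only to rank genes and as an alternative. A log2 ratio has an exact binomial interval at 95%, shares of transcripts have Wilson intervals, and with 1 library per group there is no test. Genes needed 20 reads over the 3 libraries. The limit of 1.5-fold was set beside the study's 2-fold. All 35 members are named. Of each other list up to 3 higher and 3 lower genes past 1.5-fold in G1 or G2 with at least 100 reads are named by size, and transcripts whose share moved by 30 points in genes with 200 reads in each library. Mitf, Calcr, Itgb3 and genes overlapping members were named outside this rule. A gene of the delivery list that this rule names is not reported here. The members and lists were chosen with earlier results of these data known. Alternatives were median-of-ratios and upper-quartile (percentile 75) scaling, mRNA plus lncRNA totals, FPKM with and without a pseudocount of 1, read minimums of none or 200 for all genes, protein-coding transcripts only and the 2-fold limit, and, chosen after seeing the data, ratios relative to genes of the same GC bin (5 bins). The calculation was tested on simulated data. Python 3.11.15, numpy 2.4.6, pandas 2.3.3, scipy 1.17.1 and matplotlib 3.10.9 were used.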

Additional observations from a re-analysis of the deposited data

Results flagged for a closer look

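The circRNA table, which the comparisons do not use, held 5 of its 1372 back-splice junctions at 4 of the lysosomal genes. Of these, 3 exceeded the 3 reads that a count of 0 allows. At Gusb the junction at chr5:129997780-129998553 had 7 reads from BMM-ABs and 5 from mOC-ABs, against 0 from pOC-ABs. At Glb1 the junctions at chr9:114437739-114437981 and chr9:114450597-114459725 had 4 reads each in mOC-ABs and 0 in the other libraries. Glb1 was also highest in mOC-ABs by its mRNA reads, and with so few junction reads no difference between libraries was detectable at this depth.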

How the results depend on the processing

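No paired analysis was possible because there is 1 library per AB, and no library could be left out for the same reason. The members past 1.5-fold kept their direction in 154 of 154 values under the alternatives in G1, 91 of 91 in G2 and 35 of 35 in G3. These members were chosen by the size of their ratios in the same libraries, so the count gives no support of its own. Members nearer to no difference could turn. Tpp1 in G2 went from −0.31 to 0.38 with FPKM, and Acp2 in G3 from 0.34 to −1.98 on protein-coding transcripts. Members lower past 1.5-fold numbered 22 in G1 and 16 (FPKM) to 29 (mRNA plus lncRNA totals) under the alternatives at that limit, and 13 in G2 and 11 to 16. With FPKM, Lamp2, Cln3, Idua, Galc, Tpp1 and Acp2 were no longer past it in G1. The median of the members less that of all genes was −0.65, −0.41 and 0.32 in the order of the comparisons, which library scaling cannot change because it shifts all genes alike. It was −0.65, −0.26 and 0.37 on protein-coding transcripts, −0.53, −0.31 and 0.21 with FPKM, and −0.60, −0.35 and 0.26 relative to the GC bin. Totals of mRNA plus lncRNA moved the median of all genes from −0.02 to −0.22 in G1 and from −0.05 to −0.15 in G2. Members lower in G2 numbered 26 to 30 of 35 over these settings.

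The log2 ratio of the summed reads came to −0.70, −0.39 and 0.31 with upper-quartile scaling, −0.42 in G2 and 0.34 in G3 with median-of-ratios factors, and −0.95, −0.56 and 0.39 with mRNA plus lncRNA totals. The median of G3 was 0.37 with those totals, 0.16 with FPKM and 0.15 with FPKM plus 1. With the 2-fold limit 7 members were lower in G1, 3 in G2 and 0 in G3, and 1 was higher in G3. On protein-coding transcripts 1 member was higher in G2 (Idua), and 2 were lower (Ppt1 and Acp2) and 7 higher in G3. Members lower past the limit in G3 were 0 with median-of-ratios factors, with mRNA plus lncRNA totals and relative to the GC bin, and 2 with FPKM. Those higher were 7 with mRNA plus lncRNA totals and 7 relative to the GC bin. The cause of these shifts was not tested beyond the settings themselves. With 74 to 10719 reads per member and library, counting error limits Arsa, Aga and Idua most.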

Other observations

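The lncRNA table held 32 transcripts overlapping 19 of the lysosomal genes, summing to 325 (BMM-ABs), 236 (pOC-ABs) and 180 reads (mOC-ABs), and 11 of these genes had at least 20 such reads. All lncRNA reads numbered 3634682, 4478015 and 3851365 in the same order. The share of all genes with such an overlap is not given here. Overlap was by position, and strand was not used. At Lamp2 the transcript NONMMUT072172.2 (chrX:38455588-38459507) had 4, 47 and 4 reads, a log2 ratio of 3.66 (2.21 to 5.59) in G1, while Lamp2 itself was lower in pOC-ABs than in BMM-ABs. At Ppt1 the lncRNA reads were 50, 11 and 9, the same order as its mRNA reads. At Glb1 they were 57, 27 and 55, lowest in pOC-ABs as its mRNA reads were, and at Lipa 36, 10 and 21. These genes were picked with their values in view, and reads shared with the exons of the overlapping genes cannot be told apart from those of the lncRNAs.

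Within Lamp2, Lamp2-202 gave 924, 309 and 420 reads and Lamp2-203 gave 89, 142 and 63. Lamp2-203 was higher in G1 (0.97, 0.58 to 1.37) while Lamp2-202 was lower (−1.28, −1.47 to −1.09). These protein-coding transcripts end at different positions of the gene, and they were picked with their values in view.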
